A study of Mus musculus with 27 samples.

Results

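SR-BI, scavenger receptor class B type I, is the cell-surface receptor for high-density lipoprotein encoded by Scarb1. The libraries described here are the 3 mouse endothelial cell (EC) libraries labelled with SRBI knockdown, set beside the 3 EC control libraries, which makes 6 of the 27 samples of the series. They were chosen by table and label: the knockdown libraries filled a table of normalized counts of their own, with no control in it, and the controls were the untreated columns of the table that also held 3 EC libraries treated with chylomicrons, the lipoproteins that carry dietary fat. The EC chylomicron libraries are given beside the others as a further set of levels. The series as a whole was designed to sequence RNA of endothelial cells and of peritoneal macrophages, and the microRNAs that endothelial cells release into their medium.

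The genotype of the knockdown libraries was given as SRBI-knockdown, while the name of their deposited table speaks of a knockout. No treatment was listed for them, and the labels did not say whether they had also received chylomicrons. The EC chylomicron libraries carried that treatment and no genotype, and the EC control libraries carried neither. The method of knockdown, any control construct, the dose, the time, the number of clones and the source of the cells were not given; the extraction protocol, shared by all samples, speaks of murine cell lines named PL and PLA without assigning them to libraries. Nothing stated that replicates came from separate cultures. Because the knockdown and control libraries stood in different tables without a shared control, the knockdown and any difference between the experiments cannot be told apart. Every difference below therefore describes these sets of libraries, with levels and ranges and without a test.

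SR-BI takes up cholesterol esters from lipoproteins without degrading the particle, and in the liver it removes the cholesterol that high-density lipoprotein carries back from tissues. In endothelium it signals to nitric oxide synthase when high-density lipoprotein binds, and it takes part in carrying low-density lipoprotein across the cell layer. Cells that gain or lose cholesterol adjust by opposing programmes: the sterol-sensing factor SREBP2 raises the synthesis enzymes when cholesterol is scarce, and the oxysterol receptors LXR raise the efflux transporters when it is plentiful.

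Reads assigned to genes numbered 16758727 to 20715157 in the knockdown libraries, 41903092 to 45457472 in the chylomicron libraries and 40046820 to 46700757 in the control libraries. Levels are given in RPM, reads scaled so that each library sums to 1000000, so a level is a share of a library's reads and longer transcripts collect more of them. The knockdown libraries were close to one another, with a median coefficient of variation between replicates of 6.55% over 9950 genes, against 5.95% in the control libraries. Mitochondrially encoded transcripts took 1.90% to 2.01% of reads in the knockdown libraries and 1.40% to 7.93% in the control libraries, where replicate 1 was the high one. The gene model CT010467.1 took the most reads in the knockdown libraries, at 1.34% to 1.39%, against 0.238% to 0.633% in the control libraries. The part of these quantities in the differences below was not tested.

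Scarb1 (chromosome 5, 125277087 to 125341094, GRCm38) was at 114, 118 and 120.4 RPM in the knockdown libraries, at 207, 274 and 224 RPM in the chylomicron libraries and at 251, 290.0 and 302 RPM in the control libraries. The knockdown libraries lay below every other endothelial library, and their mean, 117 ± 3.14 RPM (SD, n = 3), was 41.7% of the control mean, 281 ± 26.7 RPM (SD, n = 3), a log2 ratio of -1.26. Transcript of the targeted receptor was thus lower and still present. Scarb2, which encodes the related lysosomal membrane protein LIMP-2, was also lower in every knockdown library, at 477, 460.4 and 459 RPM in knockdown against 531, 649 and 616 RPM in control libraries, without reaching a 2-fold difference. Cd36, the class B receptor that takes up fatty acids in capillary endothelium, stayed under 1 RPM in the mean of each group.

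A gene was counted as higher or lower when the 3 knockdown libraries lay wholly above or wholly below the 3 control libraries and the group means differed at least 2-fold. Over the 13542 genes that averaged 1 RPM or more in either group, 1602 were higher (11.8%) and 992 were lower (7.33%). Separation alone, at any ratio, held for 5150 genes in the higher direction (38.0%) and 3973 in the lower (29.3%). Most genes compared were thus separated, and the counts for gene lists below are to be read against these shares. The chylomicron libraries, whose controls stood in the same table, gave 121 genes higher (0.894%) and 90 lower (0.665%) by the same rule, with 2050 (15.1%) and 1325 (9.78%) separated at any ratio. Both sets are compared with the same 3 control libraries, so their values are given side by side only. The median log2 ratio of knockdown over control was 0.06 over all genes compared, where log2 ratios are taken after adding 1 RPM to both means.

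**Figure D1:**
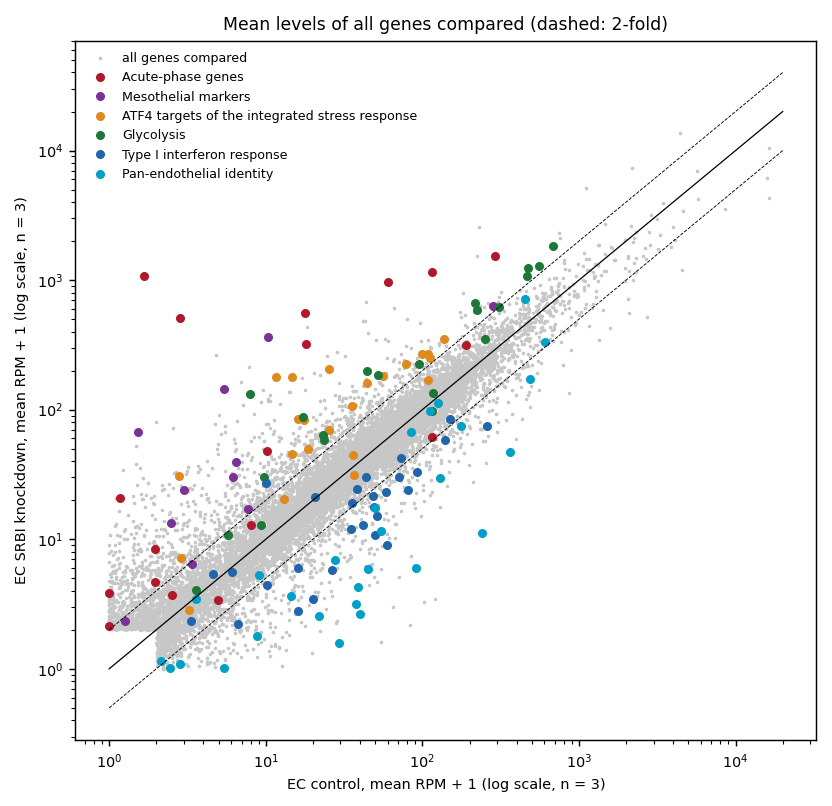
Mean RPM plus 1 of the 13542 genes compared, in the EC SRBI knockdown libraries (vertical axis) and the EC control libraries (horizontal axis), on log scales with n = 3 each. The solid line marks equal levels and dashed lines 2-fold differences. Acute-phase, mesothelial, ATF4-target and glycolysis genes lie mostly above the line, and type I interferon and pan-endothelial genes mostly below it.

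In the control libraries some endothelial genes were abundant and others stood near or under 1 RPM. Erg, Egfl7 and Cd34, with levels given below, were among those present. Nos3 and Cldn5 were named after their values were seen. Tek, Tie1, Esam and Emcn, also set as markers, are not reported here. Of the defining markers, Cdh5 (VE-cadherin, the adherens junction protein of endothelium) and Pecam1 (the junctional receptor CD31) were present, at 323, 389 and 376 RPM for Cdh5 and 162, 179 and 184 RPM for Pecam1. Kdr, the main receptor for vascular endothelial growth factor, was at only 1.75, 2.14 and 1.67 RPM and Nos3, endothelial nitric oxide synthase, at 0.779, 1.24 and 1.45 RPM, while the tight junction gene Cldn5 stayed under 1 RPM. In the knockdown libraries Cdh5, Pecam1, Kdr, Nos3 and Cldn5 were lower still. Cdh5 was at 49.8, 43.8 and 45 RPM, with a mean 7.86-fold below that of the controls, Pecam1 at 74.8, 74.5 and 72.3 RPM, and Kdr at 0.145, 0.0596 and 0.0587 RPM, which is 3 reads or fewer in each library. Cldn5 had no read in any knockdown library, where 3 reads would be 0.145 to 0.179 RPM.

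Of 28 pan-endothelial identity genes compared, 21 were lower in the knockdown libraries and 0 higher, and 25 were separated in the lower direction, with a median log2 ratio of -2.00. Erg, an ETS transcription factor that maintains endothelial identity, was at 0.483, 0.597 and 0.646 RPM in the knockdown libraries, 20, 23.4 and 20.1 RPM in the chylomicron libraries and 32.7, 27.2 and 25.5 RPM in the control libraries. Egfl7, a secreted protein of endothelial cells, was at 10, 10.8 and 9.92 RPM in knockdown against 254, 243 and 217 RPM in control libraries. The von Willebrand factor gene Vwf was at 3.14, 1.37 and 2.06 RPM in knockdown against 32.9, 41 and 35.4 RPM in control libraries, and Cd93, a C-type lectin receptor, at 5.26, 4.89 and 4.82 RPM in knockdown against 79, 101 and 90 RPM in control libraries. None of these genes overlapped between knockdown and control libraries, and for Erg the chylomicron libraries lay between them. Cd34, a sialomucin of progenitor and capillary endothelial cells, went the other way, at 688, 729 and 731 RPM in the knockdown libraries against 426, 453 and 484 RPM in control libraries, short of 2-fold. Flt1, a receptor that binds vascular endothelial growth factor as a decoy, overlapped between the groups. The letters CCGGAAG of an ETS motif, searched on both strands, stood in 1 of 20 RefSeq promoter windows of this list and in 8.86% of all windows.

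Vessel-bed genes were not uniformly lower. Of 10 arterial genes, 6 were lower (60%, against 7.33% of all genes compared) and 1 higher (10%, near the 11.8% of all genes compared). The higher one was Mgp, matrix Gla protein, at 2069, 2577 and 2316 RPM in knockdown against 718, 719 and 808 RPM in control libraries. Angpt2, the angiopoietin that destabilises vessels, was at 1.98, 1.73 and 2.35 RPM in the knockdown libraries, 14.1, 19 and 19.2 RPM in the chylomicron libraries and 61.5, 60.3 and 70.9 RPM in the control libraries, so the 3 sets did not overlap. Stab1, a scavenger receptor of sinusoidal endothelium, was at 2.8, 1.61 and 2.94 RPM in knockdown against 109, 145 and 106 RPM in control libraries. In contrast, 6 of 8 compared genes typical of brain endothelium were higher and 0 lower, from a list of 14. The count was 5 of 7 with median-of-ratios or upper-quartile scaling. Genes under 1 RPM in the controls, such as Abcb1a and Foxq1, could enter this count only through a higher level in the knockdown libraries. The list members Cldn5, Slco1a4, Lef1 and Slc38a5 had no read in any knockdown library. Among the higher ones, the forkhead gene Foxf2 was at 15.5, 15.2 and 15.3 RPM in knockdown libraries against 1.53, 1.48 and 1.35 RPM in control libraries. The forkhead gene Foxq1 was at 11.3, 11.9 and 12.9 RPM in knockdown libraries against 0, 0.0642 and 0.275 RPM in control libraries. Lymphatic genes split, with 2 of 5 compared higher and 1 lower, 3 of the 5 separated in the lower direction and a median log2 ratio of -0.58. Pdpn, under 1 RPM in each control library, could enter this count only through a higher level in the knockdown libraries. Flt4, the receptor for vascular endothelial growth factor C, was separated in the lower direction at 18.4, 18.3 and 22.5 RPM in knockdown against 28.2, 34.2 and 30.3 RPM in control libraries, as was Fgl2 at 48.9, 41.5 and 43 RPM in knockdown against 63.1, 73.9 and 64.4 RPM in control libraries. Lyve1, a hyaluronan receptor of lymphatic and sinusoidal endothelium, was higher (74.3, 65.6 and 66.5 RPM in knockdown against 29.5, 33.9 and 31.9 RPM in control libraries), as was Pdpn, podoplanin (31, 32.6 and 39 RPM in knockdown against 0.472, 0.728 and 0.549 RPM in control libraries), while Prox1, the transcription factor that specifies lymphatic endothelium, stayed under 1 RPM.

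Markers of other cell types differed as well. All 11 mesothelial markers were higher in the knockdown libraries, with a median log2 ratio of 2.44 and a summed level of 1264 to 1353 RPM, against 321 to 366 RPM in the chylomicron libraries and 302 to 343 RPM in the control libraries. Krt19, a keratin of simple epithelia, was at 337, 367 and 377 RPM in the knockdown libraries and 9.51, 8.74 and 9.54 RPM in the control libraries. Its partner keratin gene Krt8 was at 73.8, 67.8 and 58.4 RPM in knockdown against 0.684, 0.428 and 0.449 RPM in control libraries, and Cdh1, the epithelial cadherin, at 143, 137 and 148 RPM in knockdown against 4.53, 4.63 and 4.15 RPM in control libraries. The defining mesothelial genes were lower in level: Msln (mesothelin) at 20.2, 25.5 and 23.4 RPM in knockdown against 2.62, 1.63 and 1.8 RPM in control libraries, Upk3b at 15.3, 17 and 16 RPM in knockdown against 7.6, 6.47 and 5.89 RPM in control libraries and the transcription factor gene Wt1 at 5.65, 5.19 and 5.58 RPM in knockdown against 2.6, 2.53 and 2 RPM in control libraries. Of 13 epithelial markers, 5 passed 1 RPM in either group and all 5 were higher, 4 of them shared with the mesothelial list. A marker under 1 RPM in the controls could enter this count only through a higher level in the knockdown libraries. With upper-quartile scaling 6 passed, 5 of them higher and 1 lower. The defining epithelial genes Epcam and Krt5 were near 0 in both groups.

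Fibroblast and mural markers split, with 6 of 17 higher (35.3%, against 11.8% of all genes compared) and 8 lower (47.1%, against 7.33%). Their sum was 9669 to 12093 RPM in the knockdown libraries against 17379 to 20324 RPM in the control libraries. Such a sum weighs the most abundant genes most and does not describe the other members. The abundant collagen gene Col3a1 was at 7328, 5330 and 5605 RPM in knockdown against 14561, 16993 and 15811 RPM in control libraries. Dcn, the proteoglycan decorin, was higher (2034, 2159 and 2118 RPM in knockdown against 707, 772 and 785 RPM in control libraries), and Thy1, a surface protein of fibroblasts, was lower (3.52, 4.3 and 4.46 RPM in knockdown against 42.9, 47.5 and 53.9 RPM in control libraries). The muscle gene Tnnt2 was abundant in both sets (1117, 1221 and 1214 RPM in knockdown against 1455, 1394 and 1491 RPM in control libraries). Macrophage markers summed to 18.5 to 18.9 RPM in the knockdown libraries and 14.9 to 17.4 RPM in the control libraries, with Adgre1 and C1qa at 0 in every knockdown library, and 0 of 10 neutrophil and 0 of 11 lymphocyte markers reached 1 RPM. The Xist transcript was abundant in both sets (3453, 3497 and 3224 RPM in knockdown against 4262, 5195 and 4348 RPM in control libraries) and the 4 Y-linked genes examined stayed under 1 RPM. In bulk RNA, fewer cells of a type and less RNA per cell cannot be told apart, and the part of these marker differences in the results that follow was not tested.

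**Figure D2:**
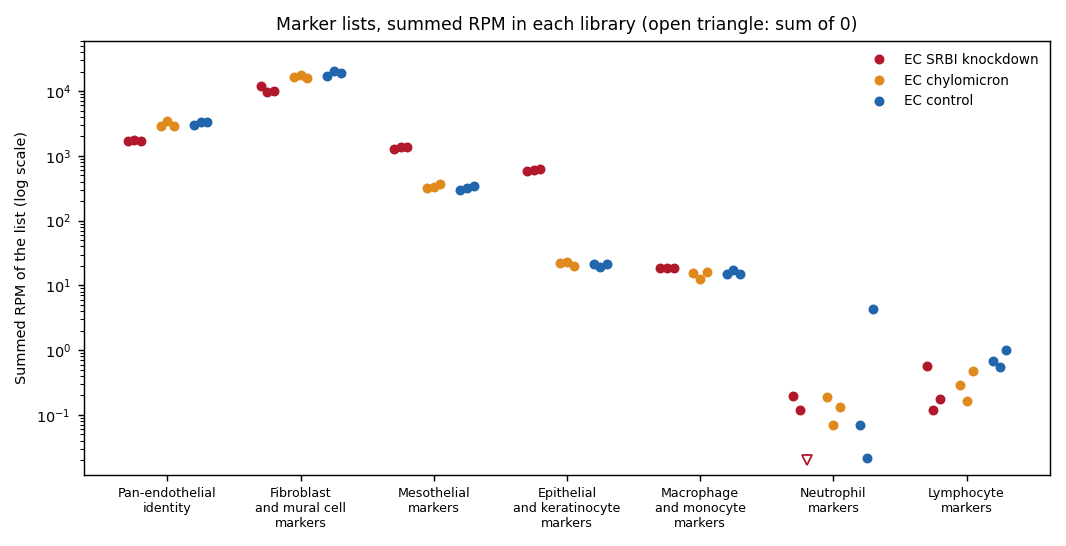
Summed RPM of each marker list in every library on a log scale, with EC SRBI knockdown left of EC chylomicron and EC control; each point is a library, and an open triangle stands for a sum of 0. Pan-endothelial sums were 1698 to 1731 RPM in knockdown libraries and 3031 to 3374 RPM in control libraries, mesothelial sums lay the other way, and immune cell sums were low throughout. Sums weigh abundant members most. Cd34, which went against the pan-endothelial list, had a mean of 716 RPM in knockdown and 454 RPM in control libraries. The median log2 ratio of that list was -2.00.

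The acute-phase list holds genes that cytokines induce, many of them for secreted proteins. It included the 2 genes with the highest ratios, after adding 1 RPM, among genes of at least 20 RPM in the higher group. Of 18 compared, 13 were higher in the knockdown libraries and 0 lower, with a median log2 ratio of 2.16. Saa3, a serum amyloid A apolipoprotein (chromosome 7, 46711998 to 46719615), was at 1072, 1089.6 and 1038 RPM in the knockdown libraries, 118, 68.7 and 121 RPM in the chylomicron libraries and 0.496, 0.857 and 0.624 RPM in the control libraries. Lcn2, the siderophore-binding protein lipocalin 2, was at 500.0, 504 and 532 RPM in knockdown, 116, 106 and 88.1 RPM in chylomicron and 1.68, 1.71 and 2.15 RPM in control libraries. The 3 sets were wholly separated for both genes. Steap4, a metalloreductase, was at 549, 535 and 598 RPM in knockdown libraries, 402, 358 and 414 RPM in chylomicron libraries and 15.2, 18.7 and 16.7 RPM in control libraries. Complement C3 was at 1154, 848 and 921 RPM in knockdown libraries against 51.1, 67.9 and 59.1 RPM in control libraries, and the copper ferroxidase gene Cp at 1180.4, 1076 and 1184 RPM in knockdown against 108, 118 and 118 RPM in control libraries. Haptoglobin (Hp), at 18.7, 19.5 and 21 RPM in knockdown against 0.307, 0.0428 and 0.175 RPM in control libraries, stood near 0 in the chylomicron libraries too, at 0.239, 0.0935 and 0.462 RPM. Saa3 and Hp, under 1 RPM in each control library, could enter the count of this list only through a higher level in the knockdown libraries. Serpina3g, a serine protease inhibitor, went against the list, at 56.6, 62.5 and 61.4 RPM in knockdown libraries against 108, 116 and 118 RPM in control libraries.

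The Saa3 promoter is shown because that gene had the highest ratio. The window, from RefSeq on GRCm38.p6, covers chr7:46715627-46715926 on the minus strand, and capitals mark the only match to the NF-kB letters GGNNTTTCC on either strand, 187 bases before the start site.
Saa3 promoter: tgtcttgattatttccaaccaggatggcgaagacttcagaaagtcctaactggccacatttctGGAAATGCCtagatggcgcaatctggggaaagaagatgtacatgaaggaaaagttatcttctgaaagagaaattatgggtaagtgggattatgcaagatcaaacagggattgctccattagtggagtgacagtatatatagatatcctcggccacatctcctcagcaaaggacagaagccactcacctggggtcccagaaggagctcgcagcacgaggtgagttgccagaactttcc
The same letters stood in 5.82% of all 32851 promoter windows searched, in 6 of 19 windows of acute-phase genes in 7 of 25 windows of chemokine genes and in 16 of 37 windows of the general NF-kB and cytokine list described below. A match describes letters and not a bound site.

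Of 18 chemokine genes compared, 11 were higher and 1 lower. Ccl2, which attracts monocytes, was at 222, 273 and 274 RPM in knockdown libraries, 415, 291 and 477 RPM in chylomicron libraries and 22, 24.7 and 23.7 RPM in control libraries, and Cxcl5, which attracts neutrophils, was at 186, 228 and 229 RPM in knockdown, 153, 126 and 176 RPM in chylomicron and 6.23, 6.55 and 7.59 RPM in control libraries. For Ccl2 the chylomicron libraries were the highest, and for Cxcl5 the knockdown libraries. Cxcl15 was at 17.6, 23 and 22.2 RPM in knockdown libraries, 1.43, 1.94 and 2.27 RPM in chylomicron libraries and 1.3, 1.52 and 1.35 RPM in control libraries. Cx3cl1, the membrane-bound chemokine fractalkine, was separated in the lower direction, at 102, 98 and 90.4 RPM in knockdown against 147, 163 and 164 RPM in control libraries. It fell short of 2-fold and is not the 1 member counted as lower. Without EC control replicate 3, 17 chemokine genes were compared, 11 of them higher and 0 lower.

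The general NF-kB and cytokine list looked different from the acute-phase list, with a median log2 ratio of 0.43. In the knockdown libraries 8 of 30 members were higher (26.7%, against 11.8% of all genes compared) and 1 lower (3.33%, against 7.33%). In the chylomicron libraries 13 members were higher and 1 lower. Ptgs2, cyclooxygenase 2, was at 35.6, 31.4 and 30.1 RPM in knockdown libraries, 7.37, 3.93 and 6.86 RPM in chylomicron libraries and 2.19, 2.42 and 1.75 RPM in control libraries. The alarmin gene Il33 was at 57, 64.9 and 68.8 RPM in knockdown libraries against 8, 10.5 and 11.7 RPM in control libraries. Tlr2, the receptor for bacterial lipoproteins, overlapped with the controls at 11.6, 13.4 and 10.4 RPM in knockdown against 11.7, 12.3 and 12.5 RPM in control libraries, while the chylomicron libraries were at 68.9, 60.9 and 71.2 RPM. Sele, E-selectin, likewise overlapped in the knockdown libraries (8.88, 10.4 and 8.1 RPM in knockdown against 7.58, 9.4 and 8.27 RPM in control libraries) and stood at 44.1, 40.9 and 47 RPM in the chylomicron libraries. Csf1, the macrophage growth factor, was the member that was lower, at 216, 219 and 209.5 RPM in knockdown libraries and 1019, 1011 and 908 RPM in chylomicron libraries against 444, 476 and 470.3 RPM in control libraries, so the chylomicron and knockdown sets lay on opposite sides of the controls.

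Type I interferon response genes were lower. Of 29 compared, 19 were lower in the knockdown libraries and 1 higher, with a median log2 ratio of -1.34; in the chylomicron libraries 17 were separated in the higher direction and 0 in the lower, none past 2-fold. Ifit3, which encodes an interferon-induced protein with tetratricopeptide repeats (chromosome 19, 34583119 to 34588982), was at 7.05, 8 and 9.04 RPM in knockdown libraries, 63.3, 61.9 and 71.6 RPM in chylomicron libraries and 55.7, 56.3 and 62.6 RPM in control libraries. Its paralogue Ifit1 was at 9.22, 9.07 and 11.2 RPM in knockdown against 49.6, 45.6 and 51 RPM in control libraries; reads of the near-identical pair Ifit3 and Ifit3b may have been split between them in counting. Usp18, the protease that removes ISG15, was at 3.86, 4.71 and 5.7 RPM in knockdown against 24, 26 and 25.9 RPM in control libraries. Cmpk2, a mitochondrial nucleotide kinase, was at 1.93, 1.67 and 1.76 RPM in knockdown against 15.2, 14.9 and 15 RPM in control libraries. The single member above the controls was Isg20, an exonuclease, at 25.5, 25.8 and 27.8 RPM in knockdown against 8.85, 9.08 and 9.06 RPM in control libraries. Antigen presentation genes followed in smaller measure, with 6 of 20 lower and 1 higher; B2m, the light chain of class I molecules, was at 266, 354 and 324 RPM in knockdown against 502, 539.6 and 533 RPM in control libraries.

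The Ifit3 promoter shows the element that names this list. The RefSeq window on GRCm38.p6 is chr19:34583279-34583578 on the plus strand, with the 3 matches to the interferon-stimulated response element letters GAAANNGAA, all on the opposite strand, in capitals, starting 155, 121 and 102 bases before the start site.
Ifit3 promoter: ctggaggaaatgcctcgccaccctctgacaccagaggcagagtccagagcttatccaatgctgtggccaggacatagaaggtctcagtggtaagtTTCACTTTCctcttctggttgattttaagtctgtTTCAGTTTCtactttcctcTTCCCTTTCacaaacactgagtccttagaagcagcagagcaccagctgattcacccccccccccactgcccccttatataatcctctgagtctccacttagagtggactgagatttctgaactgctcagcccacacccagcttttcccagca
These letters stood in 8.56% of all windows and in 12 of 25 windows of the interferon list.

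Of 39 cell cycle and DNA replication genes, 22 were higher in the knockdown libraries (56.4%, against 11.8% of all genes compared) and 0 lower. Separation in the higher direction held for 37 (94.9%, against 38.0%), where the chylomicron libraries had 36 so separated but only 1 past 2-fold. Ccna2, cyclin A2, was at 133, 175 and 170.4 RPM in knockdown libraries, 81.2, 91.4 and 99.2 RPM in chylomicron libraries and 49.6, 48.2 and 60.8 RPM in control libraries. Birc5, the mitotic protein survivin, was at 63, 92.1 and 81.4 RPM in knockdown, 34.9, 35.9 and 41.1 RPM in chylomicron and 22.4, 20.6 and 26.7 RPM in control libraries, and Mki67, the proliferation antigen Ki-67, at 667, 651 and 674 RPM in knockdown, 435, 423 and 395 RPM in chylomicron and 237, 249.7 and 292 RPM in control libraries. In all 3 genes the chylomicron libraries lay between the others.

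Most glycolysis genes were higher, with 16 of 21 past the rule and 0 lower and a median log2 ratio of 1.30. The lactate exporter gene Slc16a3 (chromosome 11, 120948484 to 120959000) was at 148, 120.0 and 122 RPM in knockdown libraries, 12.1, 13.5 and 13.2 RPM in chylomicron libraries and 6.28, 7.9 and 6.77 RPM in control libraries. Pfkp, the platelet type of phosphofructokinase, was at 198, 196 and 199 RPM in knockdown against 39.8, 43.6 and 47 RPM in control libraries, and Ldha, lactate dehydrogenase A, at 1263, 1184 and 1259 RPM in knockdown against 446, 455 and 514 RPM in control libraries. Pfkm, the muscle type of phosphofructokinase, was separated in the other direction, at 99, 94.6 and 98.2 RPM in knockdown against 109, 115 and 116 RPM in control libraries, and the glucose transporter gene Slc2a1 overlapped. Nuclear-encoded respiratory chain subunits gave 0 of 70 past 2-fold in either direction. Of them, 24 were separated higher (34.3%, against 38.0% of all genes compared) and 2 lower (2.86%, against 29.3%).

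The hypoxia response genes overlap in function with glycolysis, and 13 of 20 were higher and 0 lower. Hif1a, the oxygen-sensitive transcription factor, was at 759.7, 757 and 854 RPM in knockdown libraries, 220.3, 233 and 234 RPM in chylomicron libraries and 175, 185 and 185 RPM in control libraries. Its relative Epas1, which encodes HIF-2alpha and is typical of endothelium, was separated in the lower direction at 59.5, 46.8 and 46.6 RPM in knockdown against 87.1, 102 and 103 RPM in control libraries. Egln3, a prolyl hydroxylase that marks these factors for degradation, was at 193, 163 and 169 RPM in knockdown against 14.7, 15.8 and 17.5 RPM in control libraries. Bnip3, a mitochondrial protein of mitophagy, was at 126, 117 and 112 RPM in knockdown against 22.7, 20.4 and 24.4 RPM in control libraries, and Vegfa, vascular endothelial growth factor A, at 335, 295 and 261 RPM in knockdown against 125, 113 and 101 RPM in control libraries.

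The Slc16a3 promoter is printed as the glycolysis member with the highest ratio. Its RefSeq window on GRCm38.p6 is chr11:120948817-120949116 on the plus strand, with the 2 matches to the hypoxia response element core ACGTG in capitals, 27 and 14 bases before the start site; this core was searched on both strands and overlaps itself in the palindrome CACGTG.
Slc16a3 promoter: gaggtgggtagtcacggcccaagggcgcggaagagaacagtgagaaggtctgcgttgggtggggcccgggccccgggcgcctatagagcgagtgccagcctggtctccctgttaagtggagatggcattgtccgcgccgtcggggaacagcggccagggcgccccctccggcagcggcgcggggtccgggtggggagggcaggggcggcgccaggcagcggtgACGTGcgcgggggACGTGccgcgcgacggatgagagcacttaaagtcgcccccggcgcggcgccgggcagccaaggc
The core stood in 19.6% of all windows, in 13 of 23 windows of hypoxia genes and in 17 of 33 windows of glycolysis genes.

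Targets of ATF4, the transcription factor of the integrated stress response that raises amino acid supply, had 18 of 23 members higher and 0 lower, with a median log2 ratio of 1.46. Asns, asparagine synthetase (chromosome 6, 7675165 to 7693209), was at 146, 196 and 194 RPM in knockdown libraries, 18.2, 15.4 and 19.6 RPM in chylomicron libraries and 15, 11.4 and 14.9 RPM in control libraries. Slc7a11, the cystine transporter, was at 176, 162 and 192 RPM in knockdown against 8.78, 11 and 12 RPM in control libraries, and Slc7a5, the large neutral amino acid transporter, at 188, 213 and 216 RPM in knockdown against 22.7, 23.7 and 26.9 RPM in control libraries. Chac1, which degrades glutathione, was at 25.4, 31.3 and 32.1 RPM in knockdown against 1.77, 1.5 and 2.05 RPM in control libraries, and Phgdh, the first enzyme of serine synthesis, at 68.3, 88.8 and 92.7 RPM in knockdown against 14, 14.6 and 16.2 RPM in control libraries. Each of these was separated between the groups, and Atf4 itself was at 289, 386 and 384 RPM in knockdown against 140.0, 129.5 and 138 RPM in control libraries. Ppp1r15a, the phosphatase subunit that ends this response, was separated in the lower direction at 31.8, 31.1 and 27.3 RPM in knockdown against 35.2, 35.3 and 36.2 RPM in control libraries. Chaperones and other genes of the unfolded protein response differed less, with 1 of 22 genes higher by the rule (4.55%, against 11.8% of all genes compared). Separation in the higher direction held for 19 (86.4%, against 38.0%). Among targets of the antioxidant factor NRF2, 7 of 24 were higher (29.2%, against 11.8%) and 0 lower (0%, against 7.33%).

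The Asns promoter carries the composite element through which ATF4 is known to act on this gene. In the RefSeq window on GRCm38.p6, chr6:7693160-7693459 on the minus strand, the single match to the letters TGATGNAA, searched on both strands, is in capitals 23 bases before the start site.
Asns promoter: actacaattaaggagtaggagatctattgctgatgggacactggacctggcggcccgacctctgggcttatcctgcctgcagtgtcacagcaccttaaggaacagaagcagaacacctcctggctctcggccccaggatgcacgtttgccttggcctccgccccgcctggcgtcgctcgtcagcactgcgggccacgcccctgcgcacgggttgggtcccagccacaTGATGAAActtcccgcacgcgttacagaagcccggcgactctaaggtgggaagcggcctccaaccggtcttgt
The letters stood in 3.97% of all windows and in 9 of 23 windows of the ATF4 list.

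**Figure D3:**
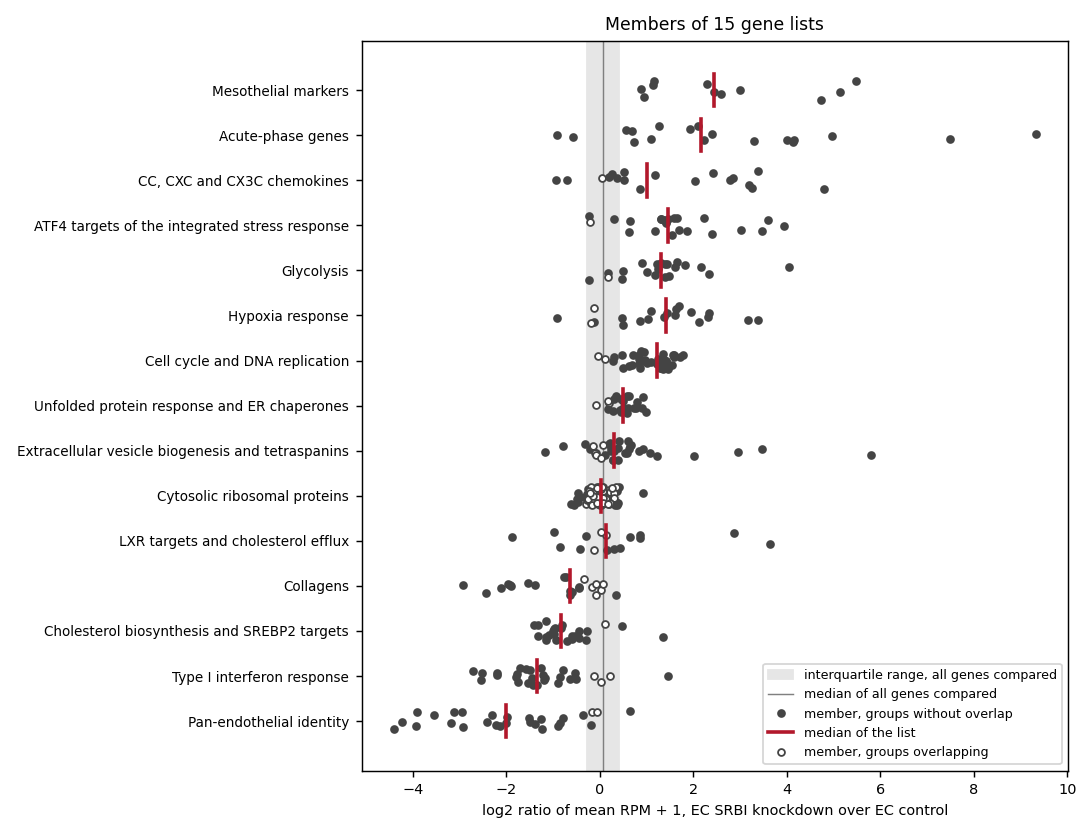
Log2 ratio of mean RPM plus 1, EC SRBI knockdown over EC control, for each member of 15 gene lists that was compared. Filled points are genes whose 3 knockdown libraries did not overlap the 3 control libraries, open points overlapped, the red bar is the median of the list, and the grey band is the interquartile range of all genes compared. Mesothelial, acute-phase, chemokine, ATF4, hypoxia, glycolysis and cell cycle medians lie above 1, and the type I interferon and pan-endothelial medians below -1.

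Of 25 cholesterol synthesis genes and SREBP2 targets, 11 were lower in the knockdown libraries and 1 higher, and 22 were separated in the lower direction, with a median log2 ratio of -0.82. The count of 11 rested partly on EC control replicate 3, without which it was 7. In the chylomicron libraries 15 of the 25 were separated in the higher direction and 1 in the lower, with 0 past 2-fold. Msmo1, a sterol methyl oxidase, was at 50.3, 56.6 and 56.7 RPM in knockdown libraries, 158, 156 and 216 RPM in chylomicron libraries and 126, 135 and 154 RPM in control libraries. Hmgcs1, which makes the substrate of the rate-limiting reductase, was at 109, 104 and 109 RPM in knockdown, 302, 326 and 359.6 RPM in chylomicron and 226, 224 and 265 RPM in control libraries. Dhcr7, the last enzyme of the Kandutsch-Russell branch, was at 17, 16.2 and 18 RPM in knockdown libraries against 37.6, 44.1 and 51.5 RPM in control libraries.

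The Hmgcs1 promoter held the only match to the sterol regulatory element letters TCACNCCAC among 20 windows of this list, and 1.24% of all windows held one. Its RefSeq window on GRCm38.p6 is chr13:119690101-119690400 on the plus strand, with the match in capitals 137 bases before the start site; both strands were searched.
Hmgcs1 promoter: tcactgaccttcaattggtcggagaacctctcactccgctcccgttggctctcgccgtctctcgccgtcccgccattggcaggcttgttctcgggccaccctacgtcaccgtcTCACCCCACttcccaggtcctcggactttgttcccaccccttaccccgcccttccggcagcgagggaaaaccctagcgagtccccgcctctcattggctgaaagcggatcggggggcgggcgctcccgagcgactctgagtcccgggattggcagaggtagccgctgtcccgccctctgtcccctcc

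Among 16 LXR targets and efflux genes, 2 were higher (12.5%) and 2 lower (12.5%), with a median log2 ratio of 0.14, a higher share near the 11.8% of all genes compared. Fatty acid synthesis genes had 2 of 17 higher (11.8%) and 2 lower (11.8%), and fatty acid oxidation genes 2 of 26 higher (7.69%) and 2 lower (7.69%). Abcg1, which exports cholesterol to high-density lipoprotein, was at 33.2, 27.1 and 30.2 RPM in knockdown libraries, 3.29, 4 and 2.42 RPM in chylomicron libraries and 3.37, 2.89 and 3.57 RPM in control libraries. Ch25h, which makes 25-hydroxycholesterol, was at 32.8, 34.7 and 29.2 RPM in knockdown libraries against 1.37, 1.43 and 2.2 RPM in control libraries. The transporter gene Abca1 was separated in the same direction, at 108, 82.6 and 83 RPM in knockdown against 44.9, 57.9 and 47.5 RPM in control libraries. Apoe, apolipoprotein E, was lower, at 449, 442 and 389.6 RPM in knockdown libraries and 1069, 1176 and 1116 RPM in chylomicron libraries against 1452, 1648 and 1611 RPM in control libraries. Lpl, lipoprotein lipase, which frees fatty acids from chylomicrons on the capillary wall, was at 157, 159 and 166 RPM in knockdown libraries against 26.1, 28.6 and 30 RPM in control libraries. Fabp5, a fatty acid binding protein, was at 483, 569 and 501 RPM in knockdown against 2647, 2564 and 2987 RPM in control libraries. Of 14 compared genes that encode SR-BI adaptors or are linked to high-density lipoprotein, 3 were higher (21.4%) and 5 lower (35.7%). The shares of all genes compared were 11.8% and 7.33%. By separation alone, 6 were higher (42.9%, near the 38.0% of all genes compared) and 7 lower (50%, against 29.3%). The 3 higher by the 2-fold rule were Abcg1, Lpl and the endothelial lipase gene Lipg, and the 5 lower were Apoe, Nos3, S1pr1, Dock4 and Acvrl1. S1pr1, the sphingosine 1-phosphate receptor engaged by high-density lipoprotein, was at 18.6, 16.8 and 13.6 RPM in knockdown against 46.5, 51.1 and 48.1 RPM in control libraries, and Dock4, the partner of SR-BI in carrying low-density lipoprotein, at 53.3, 51.5 and 49.2 RPM in knockdown against 109.7, 127 and 126 RPM in control libraries. Acvrl1, the receptor ALK1, which also binds low-density lipoprotein, was at 9.56, 9.31 and 7.99 RPM in knockdown against 35.4, 34.4 and 34.6 RPM in control libraries. The adaptor gene Pdzk1 stayed under 1 RPM.

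**Figure D4:**
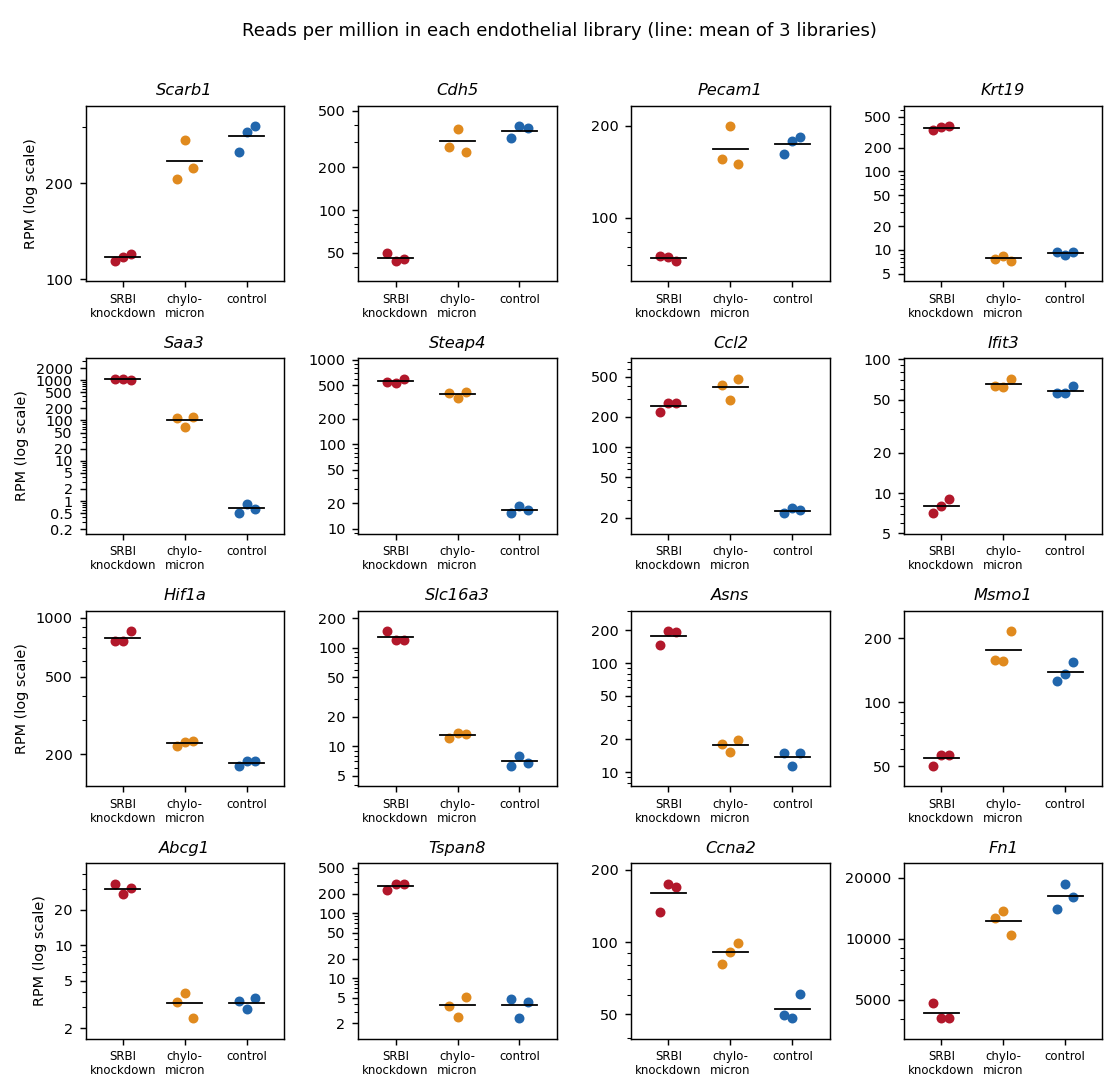
RPM of 16 genes in each library on log scales that differ between panels, with EC SRBI knockdown, EC chylomicron and EC control from left to right; points are libraries and black lines are means of 3. Scarb1, Cdh5, Pecam1, Ifit3, Msmo1 and Fn1 were lower in every knockdown library than in any control library, and the other 10 genes were higher.

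Matrix genes were lower among collagens and mixed elsewhere. Of 22 collagens, 8 were lower (36.4%, against 7.33% of all genes compared) and 0 higher (0%, against 11.8%). Their median log2 ratio was -0.64. Col4a1, a chain of basement membrane collagen, was at 1328, 1119.9 and 1123 RPM in knockdown against 3991, 4985 and 4603 RPM in control libraries, while its relative Col4a6 was separated in the higher direction, at 209, 183 and 189 RPM in knockdown against 138, 161 and 155 RPM in control libraries. Fibronectin (Fn1) was at 4816, 4039 and 4054 RPM in knockdown libraries, 12618, 13685 and 10462 RPM in chylomicron libraries and 13957, 18694 and 16093 RPM in control libraries. Of 31 matrix glycoproteins and crosslinkers, 6 were higher (19.4%, against 11.8% of all genes compared) and 6 lower (19.4%, against 7.33%). Among the higher ones were the crosslinking enzyme gene Lox (28.9, 19.9 and 26 RPM in knockdown against 1.7, 2.53 and 1.37 RPM in control libraries) and tenascin C, Tnc (78.8, 63.3 and 72.6 RPM in knockdown against 13.6, 15.9 and 16.1 RPM in control libraries). Proteases and inhibitors split in the same way, with 5 of 18 higher (27.8%, against 11.8%) and 6 lower (33.3%, against 7.33%). Plau, urokinase, was at 6.71, 5.91 and 7.34 RPM in knockdown against 45.9, 51.3 and 47 RPM in control libraries.

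Of 35 compared genes of vesicle biogenesis and tetraspanins, 7 were higher (20%, against 11.8% of all genes compared) and 1 lower (2.86%, against 7.33%). Separation in the higher direction held for 25 (71.4%, against 38.0%). Tspan8, a tetraspanin carried on vesicles, was at 231, 285 and 277 RPM in knockdown libraries, 3.75, 2.48 and 5.13 RPM in chylomicron libraries and 4.74, 2.4 and 4.22 RPM in control libraries. Rab27a, a small GTPase of exosome secretion, was at 74.5, 75.8 and 80.2 RPM in knockdown against 9.51, 8.09 and 9.56 RPM in control libraries, and Smpd3, the neutral sphingomyelinase, at 30.1, 27.9 and 29.7 RPM in knockdown against 11.6, 12.9 and 11.4 RPM in control libraries. The widely used vesicle markers Cd63 and Cd81 overlapped between the groups, and Cd9 was separated in the higher direction short of 2-fold.

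Positional identity genes also differed. Of 39 Hox genes, 13 passed 1 RPM in either group, 6 of these were higher and 0 lower, and all 6 lay in the HoxA cluster. The count of 6 became 4 with each of the 3 other scalings and without EC control replicate 1. A gene under 1 RPM in the controls could enter this count only through a higher level in the knockdown libraries. Hoxa10 was at 12.9, 13 and 14.7 RPM in knockdown against 2.01, 1.2 and 1.32 RPM in control libraries and Hoxa9 at 8.01, 8.95 and 7.11 RPM in knockdown against 0.779, 0.964 and 1.22 RPM in control libraries. Hoxa11 was at 2.08, 2.51 and 2.41 RPM in knockdown libraries and had no read in the chylomicron or control libraries, where 3 reads would be 0.0642 to 0.0749 RPM in a control library. Hoxb4 was separated in the lower direction at 5.5, 5.25 and 4.93 RPM in knockdown against 8.07, 7.99 and 8.69 RPM in control libraries.

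The genes with the highest and lowest ratios, taken after adding 1 RPM, among genes of at least 20 RPM in the higher group, were mixed in kind. Without the added 1 RPM the order changes, since genes near 0 in one group then rank higher. Besides Saa3, Lcn2, Tspan8, Krt8, Krt19, Steap4, Cxcl5 and Cdh1, the 12 highest held Gda, guanine deaminase (82.6, 75.8 and 81.4 RPM in knockdown against 1.04, 1.2 and 0.699 RPM in control libraries), Rnf112 (57.1, 52.6 and 45 RPM in knockdown against 0.637, 0.385 and 0.4 RPM in control libraries), the cornified envelope gene Sprr1a (81.8, 67.4 and 64.6 RPM in knockdown against 1.35, 1.52 and 1.77 RPM in control libraries) and Cldn2, a pore-forming claudin (32.2, 31.9 and 36 RPM in knockdown against 0.283, 0.193 and 0.2 RPM in control libraries). Of these 4, the chylomicron libraries stayed below 2 RPM in each. The 12 lowest included Hmcn1, the matrix protein hemicentin (1.5, 1.13 and 0.881 RPM in knockdown against 70, 95.4 and 81.4 RPM in control libraries), the endothelial receptor gene Gpr182 (0.676, 0.358 and 0.822 RPM in knockdown against 49.3, 56.5 and 54.3 RPM in control libraries) and the imprinted gene Mest (2.61, 2.8 and 1.41 RPM in knockdown against 97.6, 101 and 105 RPM in control libraries). The remaining ones were Stab1, Angpt2, Egfl7, Erg, Cd93, Lyl1, Plxnc1, Itgbl1 and Zfp521, at knockdown means of 0.575 to 10.3 RPM against control means of 26.9 to 238 RPM.

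Among the transcripts that took most reads, the mucin genes Muc5b and Muc5ac were abundant in both sets. Muc5b was at 9412, 6295 and 6401 RPM in knockdown libraries against 1914, 2289 and 2379.5 RPM in control libraries, and Muc5ac at 6861, 4349.9 and 4255 RPM in knockdown against 1032, 1143 and 1132 RPM in control libraries, with knockdown replicate 1 the highest for each. The imprinted long noncoding RNAs Meg3 (1.16, 1.01 and 0.646 RPM in knockdown against 12.8, 13.1 and 11.6 RPM in control libraries), Rian (0.869, 1.07 and 0.822 RPM in knockdown against 7.88, 8.57 and 8.66 RPM in control libraries) and H19 (10.1, 5.37 and 4.93 RPM in knockdown against 22.1, 27.6 and 21.3 RPM in control libraries) were lower. Ribosomal protein genes, in contrast, gave 59 of 77 members that overlapped, where 4419 of all 13542 genes compared overlapped. Of the 77, 1 was higher by the rule, and 0 with each of the 3 other scalings. The median log2 ratio of the list was 0.03, near that of all genes compared. Of 16 housekeeping genes, 3 were higher (18.75%, against 11.8% of all genes compared) and 0 lower (0%, against 7.33%). By separation alone, 7 were higher (43.75%, against 38.0%) and 5 lower (31.25%, against 29.3%), near the shares of all genes compared. Gapdh was at 1063, 1054 and 1085 RPM in knockdown against 439, 461 and 504 RPM in control libraries. Actb was separated in the lower direction at 1156, 953 and 1087 RPM in knockdown against 1215, 1215 and 1359 RPM in control libraries.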

How the data were processed

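RNA of mouse endothelial cells was sequenced after a stranded mRNA library preparation, per the labels. The submitters' processing notes list the builds GRCm38 and mm10 and the tools Subread 1.6.3, featureCounts, STAR 2.7.3a and bcl2fastq, with no role for each. The deposited values were a signal, normalized counts per gene. Within a tolerance of 0.01 reads, 99.98% to 100% of the nonzero values of a library became whole reads when multiplied by 1 number for that library, so reads were recovered; how the authors set the factors was not given in the sources used here. Each library was rescaled to a sum of 1000000 over its 55291 genes (RPM) with Python 3.11.15, numpy 2.4.6 and pandas 2.3.3, and all columns of both tables were matched to a sample.

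Genes with a mean of at least 1 RPM in either group were compared. The count test that recovered reads would allow was not run, because a p-value across tables without a shared control would treat differences between the experiments as knockdown. Ranges and SDs cover the spread of 3 libraries a group, which may be technical, and reads counted without molecular identifiers may repeat a molecule. The limit for a gene at 0 is 3 reads in a library, for counting error only. The rule was tried on simulated reads with planted changes larger than 2-fold, in genes of at least 5 RPM. That simulation held no difference between experiments, so it does not bear on the counts of genes reported here.

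The comparison, the 60 gene lists and the motifs were chosen with earlier results of these data known. Of 1172 list members 1150 matched a symbol, and the list of replication-dependent histones matched none. Genes were named by a rule: Scarb1, the 12 most abundant in each group, the 12 highest and 12 lowest ratios at 20 RPM or more (predicted models left out), and of each list up to 5 members by largest log2 ratio at 5 RPM or more without overlap, plus members against the direction of the list. Defining markers are named beside them. Adgre1, Atf4, C1qa, Cd36, Cd63, Cd81, Cd9, Cldn5, Col1a1, Col1a2, Dock4, Flt1, Hmgcs1, Hoxa11, Ldha, Lipg, Mki67, Nos3, Pdzk1, Prox1, Sele, Slc2a1, Tlr2 and mt-Co2, among other genes outside the rule, were named after their values were seen. Some genes that the rule names are not reported here. Alternatives were 3 other scalings, leaving out each library, other filters on low levels and other minimum ratios. Gene positions and promoter windows are RefSeq's on GRCm38.p6, and windows on mouse chromosome 18 were not searched.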

Additional observations from a re-analysis of the deposited data

How the results depend on the processing

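No paired analysis was possible because no result came from a test and the knockdown libraries share no numbering with the controls that their labels tie to a culture. The log2 ratio of Scarb1 was -1.26 and ran from -1.34 to -1.21 when each library was left out; it was -1.33 with median-of-ratios scaling, -1.36 with upper-quartile scaling and -1.32 with equal sums after leaving out the 50 most abundant genes. The 1602 genes higher in the knockdown libraries became 990 at a mean of at least 5 RPM, 2987 with no filter on low levels, 2613 at a ratio of at least 1.5, 670 at a ratio of at least 4 and 5150 by separation alone. The 992 lower genes became 641 at 5 RPM, 1928 with no filter, 1893 at a ratio of 1.5, 337 at a ratio of 4 and 3973 by separation alone. These changes follow from the construction of the settings. Other scalings gave 1443 to 1589 higher and 1110 to 1171 lower genes, and leaving out a library gave 1591 to 1676 higher and 969 to 1049 lower. Of 3024 ratios of named genes recomputed under alternatives, 2836 moved by less than 1 SD between replicates and 188 moved by more. Among named genes separated between the groups 0 changed direction, and genes that overlapped were not checked for direction. The median log2 ratio of the mitochondrially encoded genes was -1.11 and became 0.18 without EC control replicate 1. Of 1062 counts of list members, 1010 stayed within 1.5 times. The exception among the larger counts was the 11 lower cholesterol synthesis genes, which were 7 without EC control replicate 3. The knockdown libraries held fewer reads, so 3 reads were 0.145 to 0.179 RPM in them and 0.0642 to 0.0749 RPM in the controls, and genes near 1 RPM are the least precise.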

Other observations

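Growth factors and stress induce immediate early genes within a short time. Of 29 compared, 12 were higher (41.4%, against 11.8% of all genes compared) and 2 lower (6.90%, near the 7.33% of all genes compared). Egr1, a zinc finger transcription factor, was at 113, 130.2 and 136 RPM in knockdown libraries against 33, 27.1 and 25.3 RPM in control libraries, and Klf4, which restrains inflammation in endothelium, at 228, 235 and 239.6 RPM in knockdown libraries against 70.1, 67.8 and 70.4 RPM in control libraries. Its flow-responsive relative Klf2 was lower, at 3.04, 3.04 and 3.7 RPM in knockdown libraries against 8.19, 6.72 and 8.79 RPM in control libraries. Among 21 Notch, bone morphogenetic protein and ID genes, 2 were higher (9.52%, against 11.8% of all genes compared) and 4 lower. Those 2 were Bmp6, a ligand made by sinusoidal endothelium, at 393, 382 and 399.8 RPM in knockdown libraries against 42, 41.8 and 47.2 RPM in control libraries, and the extracellular modulator Bmper, at 59.5, 57.3 and 53.5 RPM in knockdown libraries against 5.9, 7.34 and 7.79 RPM in control libraries. Ace, the angiotensin-converting enzyme, was at 558, 435 and 458 RPM in knockdown libraries, 57.5, 56.5 and 49.4 RPM in chylomicron libraries and 37.8, 43.2 and 40.6 RPM in control libraries.

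Of 31 lysosomal genes, 0 were higher and 3 lower (9.68%, against 7.33% of all genes compared), with 18 separated in the lower direction and 5 in the higher. Ctsd, the protease cathepsin D, was at 392, 415 and 423 RPM in knockdown libraries against 766, 901 and 869.6 RPM in control libraries. Of 15 iron genes, 5 were higher (33.3%, against 11.8% of all genes compared) and 0 lower (0%, against 7.33%). Among the higher ones was the transferrin receptor gene Tfrc, at 55.9, 59.1 and 60.1 RPM in knockdown libraries against 13.6, 14.6 and 15 RPM in control libraries.

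Some transcripts were all but missing from every endothelial library. Col1a2, the chain that pairs with Col1a1 in type I collagen, was at 0.145, 0.179 and 0 RPM in knockdown libraries, 0.286, 0.0701 and 0.682 RPM in chylomicron libraries and 0.0472, 0.921 and 0.0749 RPM in control libraries, while Col1a1 was at 1119.6, 728 and 807 RPM in knockdown libraries, 776, 915 and 657 RPM in chylomicron libraries and 767, 921 and 909.5 RPM in control libraries. Of 13 mitochondrially encoded genes, 7 passed 1 RPM. The gene mt-Co2 stayed at 0, 0.0596 and 0.0587 RPM in knockdown libraries and 0.0236, 0 and 0 RPM in control libraries, although mt-Co1 was among the genes with the most reads. Predicted gene models made up 9.57% of the genes compared, 14.4% of the higher genes and 13.1% of the lower genes.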
